A study of Mus musculus with 8 samples.

Results

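Chromatin accessibility of mouse hepatocytes was compared between 48 h after partial hepatectomy (PHx), an operation that takes out most of the liver, and the undamaged liver (0 h). The comparison took in 4 of the 8 bulk ATAC-Seq libraries analysed here, chosen by the time point in their labels, with 2 libraries at each time. All mice were labelled C57BL/6, 10 to 12 weeks old and on normal diet. The study's methods name male C57BL/6J mice and give a younger age at surgery than the labels. The 0 h livers are labelled as healthy and undamaged, and hepatocytes were obtained by collagenase perfusion. The study describes biological replicates from separate hepatocyte preparations, more per time than the 2 analysed here, and the labels do not tie a library to a mouse. ATAC-Seq uses the transposase Tn5 to insert adapters into open DNA, so that open stretches are read as peaks. The deposited peak lists were compared by rank. A percentile of 100 is the strongest interval of a list by the authors' −log10 p, and 0 means that the list holds no interval there. Merging the 4 lists gave 211908 regions, of which 105808 had an interval in at least 2 lists and were tested. A region was called higher or lower when both 48 h percentiles lay beyond both 0 h percentiles by at least 10 points. With 2 libraries against 2 no exact permutation p can fall under 0.333 (two-sided), so counts and values are given with no p-value.

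After PHx the remaining hepatocytes enter the cell cycle, and the liver regains its mass while it goes on making plasma proteins, clearing ammonia and metabolising fats and drugs. Accessible chromatin marks promoters, enhancers and sites of insulator proteins such as CTCF. It also marks the short genes transcribed by RNA polymerase III, among them the tRNA genes, which supply translation and carry their promoter inside the gene as an A box and a B box. HNF4 and FOXA proteins occupy the enhancers of the differentiated hepatocyte, and AP-1 proteins are induced by growth signals and stress.

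The sequences below carry a difference between the times over tRNA genes, which was noticed after the values were seen. They are the tRNA genes of 6 different amino acids whose regions had the widest gap between 48 h and 0 h and which had no interval in either 0 h list. They are credited to RefSeq annotation on GRCm38.p6 and written 5′ to 3′ on the strand of the gene, with matches to the B box letters GTTCNANNC in capitals.
n-TLtaa2 (tRNA-Leu, chr13:21848022-21848104, minus strand): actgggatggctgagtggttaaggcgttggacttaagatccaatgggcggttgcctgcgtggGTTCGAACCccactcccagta
n-TTagt3 (tRNA-Thr, chr13:21249194-21249267, minus strand): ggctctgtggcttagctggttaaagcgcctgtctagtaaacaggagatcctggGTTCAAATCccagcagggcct
n-TGgcc12 (tRNA-Gly, chr1:171066631-171066701, plus strand): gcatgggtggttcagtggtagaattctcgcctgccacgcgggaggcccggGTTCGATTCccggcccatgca
n-TAagc12 (tRNA-Ala, chr13:23400795-23400867, minus strand): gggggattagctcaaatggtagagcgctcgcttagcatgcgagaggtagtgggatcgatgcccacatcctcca
n-TKctt15 (tRNA-Lys, chr3:96428235-96428307, plus strand): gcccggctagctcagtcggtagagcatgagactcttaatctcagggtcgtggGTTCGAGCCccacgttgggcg
n-TRtct3 (tRNA-Arg, chr13:21917162-21917247, minus strand): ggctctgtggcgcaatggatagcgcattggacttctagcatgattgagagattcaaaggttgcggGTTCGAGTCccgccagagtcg

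All 6 tRNA genes lay outside coding genes, and 5 of them held the B box letters. The n-TLtaa2 region reached the percentiles 79.3 and 87.7 at 48 h, in replicates 1 and 2. The n-TTagt3 region stood at 87.4 and 73.4, and the n-TGgcc12 region, whose interval began inside the gene, at 95.4 and 71.3. The n-TAagc12 region stood at 70.4 and 70.1, the n-TKctt15 region at 91.7 and 59.9, and the n-TRtct3 region at 60.2 and 57.4. All 6 were therefore in the upper part of both 48 h lists, while neither 0 h list held them. Their sequences occur 1 to 7 times among the 403 annotated tRNA genes, which hold 221 distinct sequences. Reads from identical copies cannot be assigned to 1 copy from their own bases, so the level of a copy with repeats is uncertain.

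Over all tRNA genes the same direction was seen. Of the 201 tested regions that overlapped an annotated tRNA gene, 52 (25.9%) were higher at 48 h and 0 were lower, beside 7.92% and 7.95% of all tested regions. Of these 52, 14 were missing from both 0 h lists and entered the test only through the 48 h lists. Over all regions this held for 2560 of the 8381 higher. Among regions with an interval in all 4 lists, 26 of 159 tRNA gene regions were higher and 0 lower, beside 3850 and 2230 of 63112. Before any margin, 121 of the 201 regions (60.2%) had both 48 h percentiles above both 0 h percentiles and 10 (4.98%) had both below, compared with 21.1% and 18.7% of all tested regions. The median percentile of the tRNA gene regions was 77.6 and 75.1 in undamaged liver and 87.8 and 87.1 at 48 h. That of all tested regions was 57.2 and 48.6 in undamaged liver and 53.1 and 60.8 at 48 h. The tRNA gene regions were thus among the stronger regions of undamaged liver and stood higher still in both 48 h lists.

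As a background, the same 4 libraries were regrouped in the 2 mixed ways that place 1 library of each time on each side. Among the tRNA gene regions these mixed groupings called 5 and 1 higher and 1 and 1 lower. Cut to the length of the shortest list, the lists gave 42 higher and 0 lower at 48 h, with 4 and 1 higher and 4 and 2 lower in the mixed groupings. Their medians were then 73.0 and 75.1 in undamaged liver and 86.3 and 83.0 at 48 h. Regions ranked by the authors' fold enrichment instead of −log10 p gave 48 higher and 1 lower. With 1 library left out the number of higher regions stayed between 51 and 80. At 72 h the median of the 201 regions was 75.1 and 85.5 and at 96 h it was 72.8 and 74.0, so both 96 h medians were below both 0 h medians, and 1 of the 72 h medians equalled the lower 0 h median. Over the 52 higher regions alone the medians were 42.3 and 15.7 in undamaged liver, 79.6 and 74.1 at 48 h, then 56.2 and 74.3 (72 h) and 35.8 and 51.5 (96 h).

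**Figure D1:**
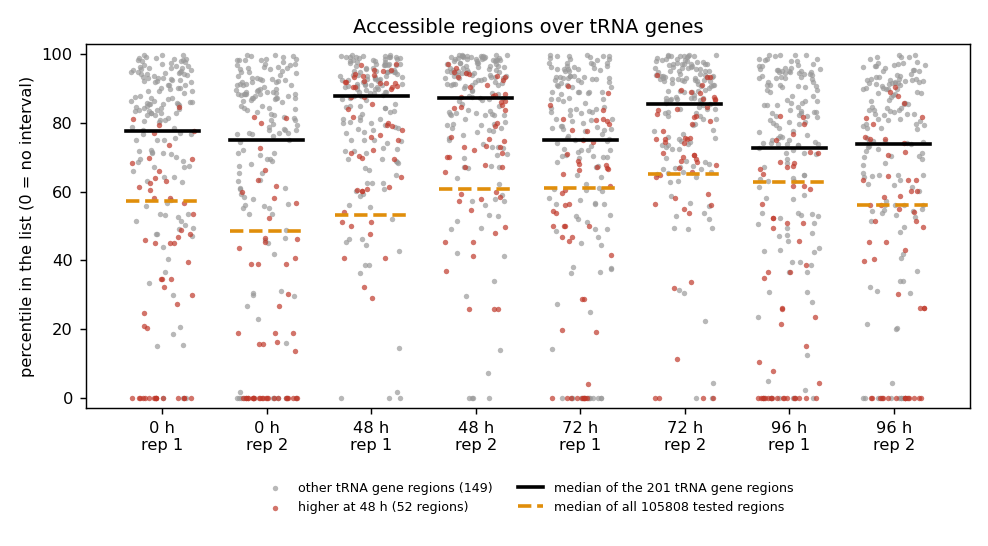
Percentile in the peak list (y axis, 0 where the list holds no interval) of the 201 regions over tRNA genes in each of the 8 libraries (x axis), 1 point per region (red for the 52 higher at 48 h, grey for the others), with black bars at their median and dashed bars at the median of all 105808 tested regions. The black bars stand at 87.8 and 87.1 at 48 h and at 77.6 and 75.1 at 0 h.

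The higher tRNA gene regions were spread over 19 of the 20 tRNA products among the tested regions. Regions of tRNA-Ala (6 of 18), tRNA-Ser (6 of 18), tRNA-Val (6 of 17) and tRNA-Ile (6 of 11) were the most frequent, and none of the 5 tRNA-His regions was called. Chromosome 13 held 34 of the 52, of 74 tested there, all between positions 21167554 and 23522082. This stretch is known for its many tRNA genes beside the replication-dependent histone genes. Outside chromosome 13, 18 of 127 tRNA gene regions were higher, with 5 on chromosome 3 and 4 on chromosome 1. All 52 lay farther than 1 kb from a coding transcription start site (TSS), as did 173 of the 201 tested. Of the 28 promoter tRNA gene regions 21 already stood above 90 in a 0 h list and could not rise by the margin, so their lack of calls says little about them. The same held for 39 of the 173 others. In 19 of the 52 the region held a tRNA gene whose sequence occurs once among the annotated genes, compared with 75 of the 201.

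Among other short non-coding genes, regions over U6 snRNA genes, also transcribed by RNA polymerase III, numbered 9, of which 4 (44.4%) were higher and 0 lower. Regions over other snRNA genes gave 3 higher (9.09%) and 0 lower of 33. Those over snoRNA genes gave 9 higher (8.65%) and 7 lower (6.73%) of 104, and those over miRNA genes 15 higher (10.3%) and 4 lower (2.74%) of 146. The shares of higher regions in these last 3 classes were near the 7.92% of all tested regions. Of 8 regions at single RNA polymerase III genes outside these classes none was called, but 5 of them already had a 0 h percentile above 90 and could not rise by the margin. In 5 of the 8 both 48 h values were above both 0 h values. Rny1, which encodes a Y RNA, stood at 74.0 and 53.3 in undamaged liver and 81.9 and 92.3 at 48 h, a gap under the margin of 10 points. Rn7sk, whose RNA restrains transcription elongation, stood at 98.2 and 94.1 in undamaged liver and 99.8 and 99.8 at 48 h, near the top of every list. Rmrp, the RNA of RNase MRP, stood at 98.2 and 98.9 in undamaged liver and 97.9 and 97.8 at 48 h, with 48 h below 0 h.

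Zfp184, the gene with the largest net number of higher regions in the main calls (−log10 p, whole lists, all 4 libraries), lies beside tRNA genes in this stretch of chromosome 13. Regions were assigned to the coding gene whose body held their midpoint, otherwise to the nearest coding TSS within 50 kb. Zfp184, a zinc finger gene, was assigned 15 regions, of which 10 were higher and 1 lower, with 1 higher in each mixed grouping. Of these 15 regions 11 lay over tRNA genes, all of them upstream of the gene, and 9 of the 10 higher regions were among them. Those 9 lay between −48.06 and −7.95 kb from the Zfp184 start site. The tRNA gene region at −25.76 kb stood at 64.1 and 52.3 in undamaged liver and 90.5 and 92.5 at 48 h. The Zfp184 promoter itself stood at 75.1 and 58.9 in undamaged liver and 63.8 and 71.9 at 48 h, where the times overlapped. With 1 library left out the net number of 9 at Zfp184 became 5 to 11, and other genes then exceeded it, Plcb1 with 13 and Tshz2 with 10 when it was 5 (without 48 h replicate 1). Ranked by fold enrichment, Zfp184 and Plcb1 both had a net number of 8.

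**Figure D2:**
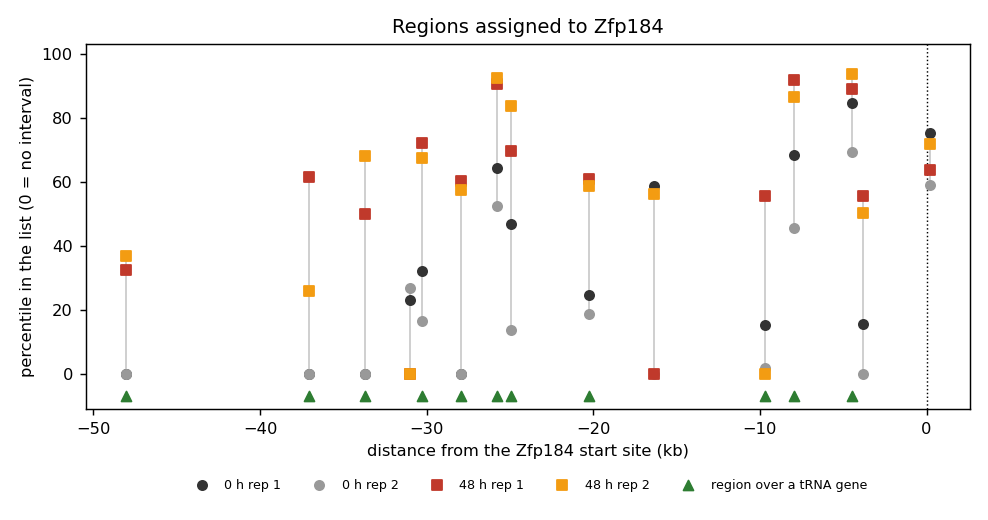
Percentile in the peak list (y axis) of the 15 regions assigned to Zfp184 against their distance from its start site in kb (x axis), with circles for the 0 h and squares for the 48 h libraries and triangles under the 11 regions over tRNA genes. The promoter region at 0.22 kb shows overlapping times, and the tRNA gene region at −27.92 kb is at 0 in both 0 h lists.

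Over the whole genome, 8381 regions (7.92%) were higher and 8411 (7.95%) lower at 48 h. The mixed groupings called 5701 and 12243 higher and 4062 and 1903 lower. Their totals of 9763 and 14146 were both below the 16792 of the true grouping, by 1.72 and 1.19 times. The second mixed grouping set the 2 longest lists (139376 and 126773 intervals) against the 2 shortest (117943 and 105206). In lists of equal length the true grouping called 6450 regions higher and 10263 lower, and the mixed groupings 4548 and 5782 higher and 4717 and 3803 lower. The total of 16713 then stood above mixed totals of 9265 and 9585. The balance of higher and lower calls thus depended on list length. The true grouping had the largest total both ways, and its excess over the second mixed grouping was larger with equal length. The depth behind the lists is unknown. The 50000th interval reached a −log10 p of 15.2 and 9.96 in undamaged liver and 8.05 and 8.62 at 48 h. Signal strength thus differed between libraries, and at 0 h also between the replicates. Its part in the calls was not tested.

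**Figure D3:**
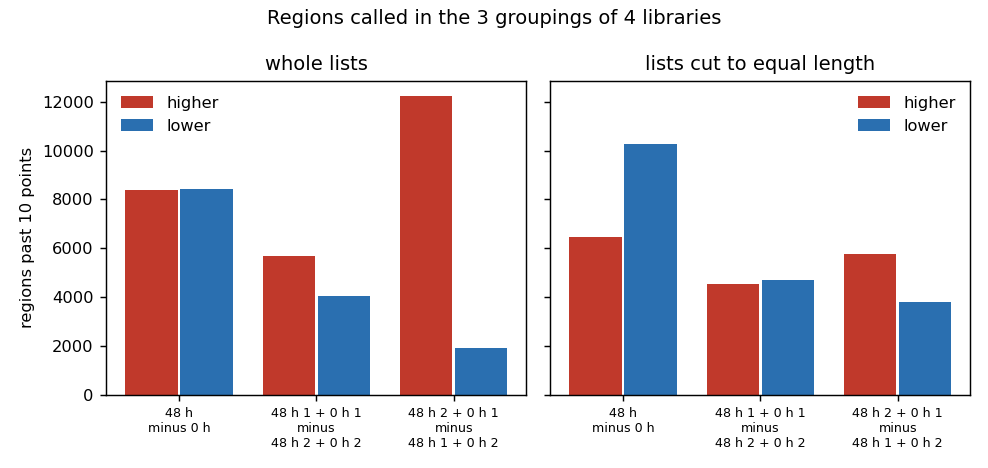
Number of regions past the margin of 10 points (y axis) in the true grouping and in the 2 mixed groupings of the 4 libraries (x axis), for whole lists on the left and lists of equal length on the right, with red bars for higher and blue for lower. With equal length, 10263 regions were lower at 48 h against 4717 and 3803 in the mixed groupings.

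Called regions held both changes of rank and intervals missing at 1 time. Of the higher regions 2560 (30.5%) were missing from both 0 h lists, and of the lower regions 4359 (51.8%) were missing from both 48 h lists. The median gap was 18.6 points for higher and 20.8 for lower regions. At the threshold the nearest values were a gap of 10.0057 inside and 9.99984 outside for higher regions, and 10.0022 and 9.99204 for lower regions. Higher regions had a median width of 408 bp and lower regions of 373 bp, compared with 497 bp overall. Promoters, within 1 kb of a coding TSS, made up 11.5% of higher and 7.64% of lower regions, compared with 16.1% of all tested regions. Introns held 42.7% and 46.5% of them, and intergenic sequence 37.5% and 37.7%.

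Labels were compared with marker promoters, read as the strongest interval within 1 kb of a TSS. All 10 hepatocyte markers had a promoter interval in both 0 h lists, but only 6 and 8 did at 48 h, and 6 of the 10 were lower in both 48 h lists than in both 0 h lists. Their mean percentile was 71.8 and 68.4 in undamaged liver and 29.3 and 54.5 at 48 h. The promoter of Hnf4a, which encodes the hepatocyte factor HNF4α, stood at 98.0 and 98.2 in undamaged liver and 95.4 and 97.6 at 48 h. Of the 7 Kupffer cell markers none had an interval in both 0 h lists or in any 48 h list, with Clec4f (16.6) in 0 h replicate 1 alone and Adgre1 (3.8) in replicate 2 alone, and the 4 lymphocyte markers had none in any list. Endothelial markers had an interval at 2 and 2 of 7 promoters in undamaged liver and 2 and 3 at 48 h, where Pecam1 (59.9) and Clec4g (91.4) were listed in replicate 2 alone. Stellate cell markers had a mean of 42.9 and 33.2 in undamaged liver and 39.9 and 47.0 at 48 h, and 2 of 7 were higher in both 48 h lists. Cholangiocyte markers had a mean of 43.2 and 40.5, then 32.7 and 41.1, with an interval at 4 and 3 of 5 promoters in undamaged liver and 2 and 3 at 48 h, and 1 was lower in both 48 h lists. The part of other cell types in the results was not tested, and in bulk nuclei fewer cells with an open site and less signal per cell cannot be told apart.

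Regions at genes of hepatocyte metabolism were more often lower than higher at 48 h. In 7 lists of metabolic genes with 1830 tested regions at 267 genes, 250 (13.7%) were lower and 128 (6.99%) higher, beside 7.95% and 7.92% of all tested regions. The mixed groupings gave 105 and 46 lower and 82 and 204 higher. In lists of equal length the counts were 295 lower and 91 higher. Without 0 h replicate 1 they were 236 lower and 288 higher, when 22751 regions of the genome were higher and 7724 lower, and without 48 h replicate 1 they were 355 and 348. The shares of lower regions were 15.8% for cytochrome P450 genes, 15.0% for conjugation enzymes, 13.6% each for carbohydrate and lipid metabolism and for periportal and urea cycle genes, 12.7% for plasma proteins, 12.2% for bile acid genes and 10.2% for pericentral genes. Of the genes in these lists 31 held at least 2 lower and 0 higher regions, and 8 held the reverse, beside 3.74% and 3.77% of the 17107 genes with regions, which had 5.28 regions per gene against 6.85 in these lists.

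Single loci showed the values behind these counts. Alb, the gene of serum albumin, had its promoter at 72.3 and 50.03 in undamaged liver and no interval at 48 h. The promoter of Tat, a tyrosine-degrading enzyme of the adult liver, stood at 73.1 and 67.4 in undamaged liver and had no interval at 48 h, and it was back at 51.6 and 77.3 at 72 h. The promoter of Cyp2e1, a pericentral enzyme of ethanol metabolism, stood at 59.4 and 63.1 in undamaged liver and at 9.26 and 49.2 at 48 h. At these 3 promoters the times did not overlap. At 4 other hepatocyte markers they did, as at Ttr, which encodes transthyretin (83.7 and 63.8 in undamaged liver, 0 and 67.0 at 48 h), and Apob, which encodes apolipoprotein B (69.7 and 79.2, then 0 and 74.4). The Apoa1 and Serpina1a promoters were listed in all 4 libraries and overlapped too.

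Among genes of glucose and fat use, Irs1, an adaptor of the insulin receptor, held 4 lower and 0 higher of 10 regions. Its intronic region 7933 bp from the nearest coding TSS stood at 75.8 and 81.7 in undamaged liver and 64.0 and 54.3 at 48 h. Irs2, the related adaptor, held 3 higher and 0 lower of 20 regions. Both adaptors were on the same list and their called regions lay in opposite directions. Pdk4, a kinase that restrains glucose oxidation, held 3 lower and 0 higher of 16 regions, and Pck1, of gluconeogenesis, 2 and 0 of 13. Ugt2a3, a glucuronosyltransferase, held 3 lower regions of 12, with its promoter at 51.3 and 35.3 in undamaged liver and no interval at 48 h. Nr0b2, the bile acid-responsive repressor SHP, had a region at 66.8 and 52.04 in undamaged liver and at 25.3 and 0 at 48 h, and it stood at 76.2 and 67.6 at 72 h. The Tat and Ugt2a3 promoters and this Nr0b2 region were listed in all 4 lists of 72 and 96 h.

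Of the hepatocyte transcription factors 10.3% of 302 regions were lower and 6.95% higher, beside 7.95% and 7.92% of all tested regions, and the mixed groupings called 15 and 6 lower and 13 and 21 higher. Ppara, the nuclear receptor that drives fat oxidation, held 5 lower and 0 higher of 26 regions. One of them, 12525 bp from the nearest coding TSS, stood at 59.6 and 60.8 at 0 h with no interval at 48 h. Nr2f2, which encodes the nuclear receptor COUP-TFII, held 3 higher and 0 lower of 13 regions.

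**Figure D4:**
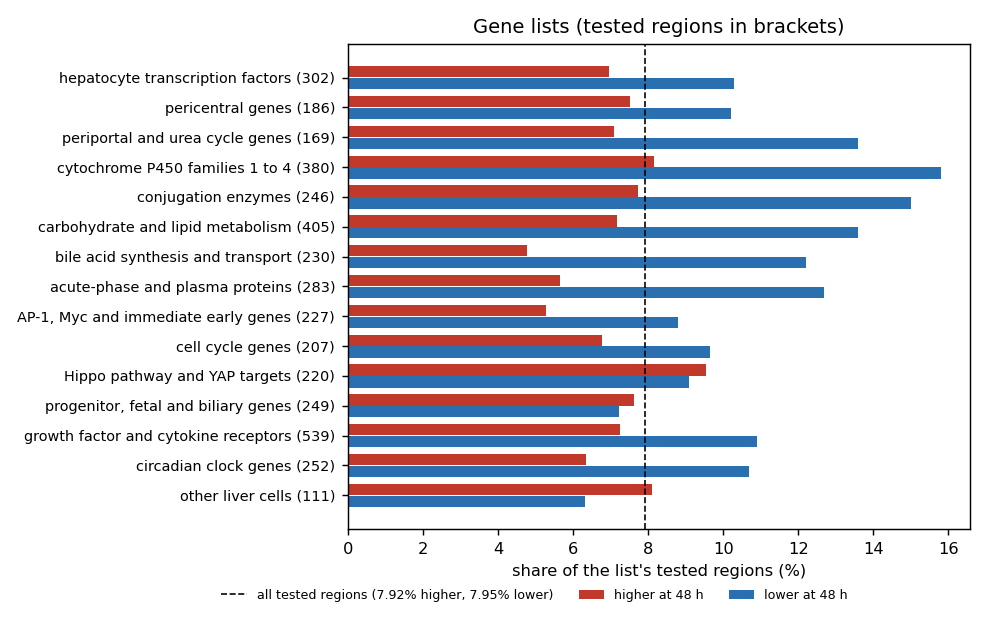
Share of each list's tested regions that was higher (red) or lower (blue) at 48 h, in percent (x axis), for the 15 gene lists (y axis), with the share of all tested regions as a dashed line. Cytochrome P450 genes had 15.8% lower and 8.16% higher regions.

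Of 252 regions at 21 circadian clock genes, 27 (10.7%) were lower and 16 (6.35%) higher, beside 7.95% and 7.92% of all tested regions. At least 2 lower and 0 higher regions were held by 7 of the 21, beside 3.74% of all genes, but clock genes had 12 tested regions per gene and all genes 5.28, which makes such a count easier to reach. The mixed groupings called 6 and 6 clock gene regions lower and 11 and 33 higher. The 7 genes were Cry1, Cry2, Per1, Nr1d1, Dbp, Hlf and Csnk1d. Per1, Cry1, Cry2 and Nr1d1 encode repressors of the clock and Dbp and Hlf its output factors. Arntl, which encodes the activator BMAL1, held 2 higher and 0 lower of 19 regions. The Dbp promoter stood at 62.7 and 69.8 in undamaged liver, 51.5 and 43.6 at 48 h, and 71.7 and 68.5 at 72 h. A Per1 promoter stood at 76.6 and 66.8 in undamaged liver, 42.6 and 40.5 at 48 h, and 63.9 and 61.7 at 72 h. Both promoters were listed at every time and were lowest at 48 h in both replicates among 0, 48 and 72 h. The hour of collection was not given in the sources used here, and its part was not tested.

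Cell cycle genes had shares closer to those of all tested regions, with 20 of 207 regions lower (9.66%) and 14 higher (6.76%). Ccne2, the gene of cyclin E2, held 2 higher regions of 5, with its promoter region at 72.3 and 56.7 in undamaged liver and 85.5 and 83.0 at 48 h. Pcna, the replication clamp, held 2 regions and both were lower, with its promoter at 96.8 and 94.2 in undamaged liver and 83.2 and 80.8 at 48 h. E2f8, a repressor of cell cycle genes, held 3 lower and 0 higher of 7 regions. Immediate early genes had 20 lower (8.81%) and 12 higher (5.29%) of 227 regions, beside 7.95% and 7.92% of all tested regions. In this list Ier2 held 4 lower regions of 7 and Atf3 2 higher regions of 21.

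Genes of the Hippo pathway, which restrains organ size through the cofactor YAP, had 21 higher (9.55%) and 20 lower (9.09%) of 220 regions, near the 7.92% and 7.95% of all tested regions and with no common direction. At least 2 higher and 0 lower regions were held by Nf2, Stk3, Crim1, Ccn2 and Tead4, and the reverse by Lats2 and Yap1. The YAP target Ccn2 had a region at 55.6 and 46.0 in undamaged liver and 84.4 and 82.5 at 48 h, and Tead4, a DNA-binding partner of YAP, one at 56.8 and 51.2 in undamaged liver and 78.7 and 76.2 at 48 h. Among progenitor, fetal and biliary genes 19 (7.63%) of 249 regions were higher and 18 (7.23%) lower, again near all tested regions. The promoter of Vim, the gene of the mesenchymal filament vimentin, stood at 77.8 and 65.5 in undamaged liver and 91.9 and 88.0 at 48 h. Sox17 and Igf2bp3 held 2 higher regions each, and Gata6 and Gli2 2 lower regions each. Growth factor and cytokine receptors had 59 lower (10.9%) and 39 higher (7.24%) of 539 regions. Met, the receptor of hepatocyte growth factor, held 3 lower of 18 regions and Il6ra 2 lower of 11, while Tgfbr1 held 3 higher of 8 and Fgfr1 2 higher of 10. Genes of other liver cells had 9 higher (8.11%) and 7 lower (6.31%) of 111 regions, with 2 higher at Marco and at Reln and 2 lower at Acta2.

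Several higher regions, at least 3 with no more than 0.25 times as many lower, were held by 197 genes (1.15% of 17107), and several lower regions by 222 genes (1.3%). The mixed groupings gave 140 and 727 genes for higher and 49 and 1 for lower regions. Which side of a mixed grouping counts as higher is arbitrary, so both counts lay inside this background. In lists of equal length the counts were 75 higher and 402 lower. After Zfp184, the most net higher regions were held by Cers6, a ceramide synthase, with 7 of 33, and by Plcb1, a phospholipase C, with 9 higher and 2 lower of 62. Slc4a4, a bicarbonate cotransporter, and Shroom3, which shapes epithelial cells, each had 7 higher and 1 lower. Tshz2 had 6 higher of 44, Elf1 6 higher and 1 lower of 16, and Pax6, Nnt, Ccdc25, Wdr7 and Ppfibp2 5 higher each of 10 to 20 regions. The mixed groupings called 7 and 2 regions higher at Plcb1, 3 and 6 at Shroom3, 4 and 4 at Slc4a4, 3 and 2 at Tshz2 and 0 and 4 at Cers6, and 0 to 2 at the last 6 genes. Without 48 h replicate 2 the net number was 0 at Nnt, 1 at Cers6 and Elf1, 2 at Pax6, Ccdc25 and Shroom3 and 3 at Slc4a4. Without 48 h replicate 1 it was 2 at Nnt and Elf1 and 3 at Ppfibp2. Without 0 h replicate 2 it was 0 at Shroom3 and 3 at Ppfibp2, and by fold enrichment it was 1 at Pax6 and 3 at Slc4a4 and Wdr7. In lists of equal length the net number was 9 at Zfp184 and 5 at Plcb1, 3 at Nnt and Elf1, 2 at Cers6, Shroom3 and Pax6, 1 at Tshz2 and 0 at Slc4a4. Without 0 h replicate 1 it was 21 at Tshz2, 16 at Plcb1, 13 at Shroom3 and 12 at Cers6. A Slc4a4 intron region stood at 68.6 and 67.9 at 48 h with no 0 h interval, and a Pax6 promoter region at 69.3 and 47.1, likewise with none at 0 h. A Nnt intron region at 50.8 and 69.8 at 48 h had no interval at any other time.

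The genes with the most net lower regions were Ttc39c, with 9 of 37, and Fars2, a mitochondrial phenylalanyl-tRNA synthetase, with 11 lower and 2 higher of 46. Bbox1, which makes carnitine, had 7 lower and 0 higher of 15 regions, with 0 lower in either mixed grouping and 0 and 1 higher. Itpr1, a calcium channel of the endoplasmic reticulum, had 9 lower and 2 higher of 53. Its intron region stood at 89.6 and 76.7 in undamaged liver, had no interval at 48 h, and stood at 82.6 and 58.5 at 72 h. Cyp7b1, an oxysterol hydroxylase of bile acid synthesis, had 7 lower and 1 higher of 24. Ghr, the growth hormone receptor, had 8 lower and 2 higher of 40, and 1 of its promoters stood at 59.3 and 42.4 at 0 h with no interval at 48 h. Vgll4, which competes with YAP for TEAD proteins, had 7 lower and 1 higher of 29. Etv6, Mtus1, Arhgap24, Plekha6 and Zfp697 had 6 to 8 lower and 0 to 2 higher. The lower regions of Zfp697 lay inside its long gene body (chr3:98382461-98753812), and whether other genes start nearer to them was not checked. The mixed groupings called 5 and 2 regions lower at Itpr1, 4 and 0 at Fars2, and 0 to 3 at each of the others. Which side of them counts as lower is arbitrary. They called 2 and 7 regions higher at Ttc39c, 3 and 7 at Ghr, 1 and 6 at Fars2, 2 and 6 at Etv6 and 0 and 5 at Mtus1. At each of the others they called 0 to 4 higher. Ranked by fold enrichment, Ttc39c had 1 more higher than lower region and Cyp7b1 a net number of 0. Bbox1 and Cyp7b1 had net numbers of −4 and −1 in lists of equal length. Without 0 h replicate 1 Etv6, Plekha6, Mtus1 and Ghr held more higher than lower regions, with net numbers of 4, 2, 1 and 1, and those of Itpr1 and Arhgap24 were 0. The net number was then −3 at Fars2, Bbox1 and Zfp697, −5 at Ttc39c, −4 at Vgll4 and −1 at Cyp7b1.

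Among regions listed in all 4 libraries, the 6 widest gaps upward were at introns of Prr5l, Tspan9 and Thsd4 and between genes near Poc1b, Tmem216 and Ssbp2. The Prr5l intron stood at 20.5 and 21.2 in undamaged liver and 81.8 and 78.5 at 48 h. The widest downward were near Gsc (88.2 and 85.0 in undamaged liver, 28.8 and 6.89 at 48 h) and at Krt8, a keratin of liver epithelium (74.2 and 84.3, then 19.6 and 18.7), followed by Jak1, Ppm1m, an intergenic region of chromosome 6 and Rybp. The Krt8 region returned to 73.4 and 65.5 at 72 h. Of the 6 regions with the widest gap upward and no interval in undamaged liver, 2 were the tRNA gene regions of n-TLtaa2 and n-TTagt3. The others lay near Mon1b, Vip, Slc9a2 and Usp7. The 6 widest downward with no 48 h interval were the Itpr1 intron and regions at Rlim, Zdhhc13, Colca2, Elane and Stk40.

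The share of regions with a short motif differed between higher and lower regions for some motifs. Windows of 200 bp around the strongest summit were searched on both strands. The CTCF motif was found in 10.5% of higher and 2.59% of lower regions, compared with 7.28% of all, and the difference of 7.93 points compared with −1.83 and 3.65 points in the mixed groupings. AP-1 letters (TGACTCA or TGAGTCA) were found in 9.0% and 3.45% (5.7% of all), a difference of 5.55 points against 2.84 and 0.883. FOXA letters (TGTTTAC or TATTTAC) were found in 6.01% and 9.71% (7.79% of all), a difference of −3.7 points against 1.19 and 1.5. HNF4 letters (CAAAGTTCA or CAAAGTCCA) were found in 1.07% and 3.54% (2.29% of all), a difference of −2.47 points against −0.0129 and −0.618. The E-box CACGTG, bound by clock and Myc proteins, was found in 2.66% and 4.68% (3.34% of all), a difference of −2.02 points against −1.08 and −0.19. In all, 14 of 25 motifs had a difference larger in size than both mixed groupings. C/EBP (−1.69 against −0.244 and −1.72) and STAT (−0.414 against 0.311 and 0.451) did not. Of 3 groupings 1 always has the largest difference for a motif, so the count of 14 is a weak criterion. Some of the 14 differences were small or close to a mixed grouping. Examples are E2F (0.192 against 0.0591 and 0.0185) and IRF (−0.874 against −0.803 and 0.62). A match describes the letters in a window and not binding.

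**Figure D5:**
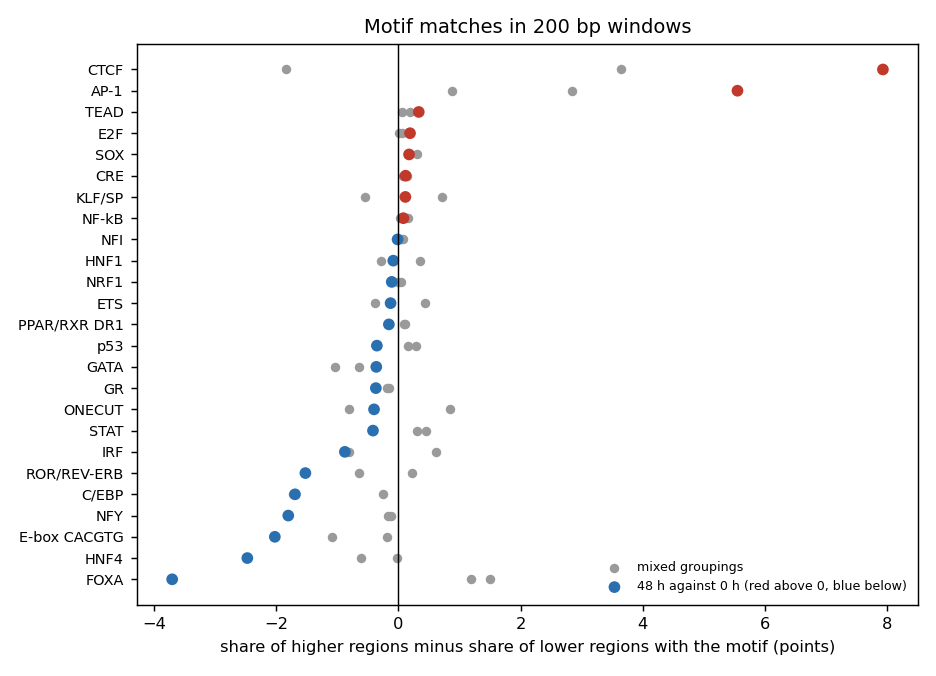
Share of higher regions minus share of lower regions with a match, in percentage points (x axis), for 25 motifs (y axis), in coloured points for 48 h against 0 h and grey points for the 2 mixed groupings. CTCF (7.93) and AP-1 (5.55) stand to the right of their grey points, and FOXA (−3.7) and HNF4 (−2.47) to the left.

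The windows below show called regions with an AP-1, CTCF, HNF4 or E-box match. Hes1 and Nt5e had the widest gap of their motif and Rbfox1 the next widest, and the others were picked at list genes after their values were seen. Sequences are from RefSeq GRCm38.p6, plus strand, with the match in capitals.
Hes1, AP-1, higher (chr16:30034177-30034236): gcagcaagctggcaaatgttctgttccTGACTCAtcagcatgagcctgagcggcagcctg
Rbfox1, CTCF, higher (chr16:6480507-6480566): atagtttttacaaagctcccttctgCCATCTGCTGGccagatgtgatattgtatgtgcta
Nt5e, HNF4, lower (chr9:88328868-88328927): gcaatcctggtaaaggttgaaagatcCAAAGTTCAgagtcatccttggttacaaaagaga
Hnf4a, HNF4, lower (chr2:163559360-163559419): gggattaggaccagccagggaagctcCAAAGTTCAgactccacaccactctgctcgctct
Nr1d1, E-box, lower (chr11:98773033-98773092): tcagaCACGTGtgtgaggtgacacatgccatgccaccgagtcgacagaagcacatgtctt
Per1, E-box, lower (chr11:69098756-69098815): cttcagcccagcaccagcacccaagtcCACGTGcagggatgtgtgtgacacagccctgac

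The Hes1 region lay 31181 bp from the nearest coding TSS, between genes, and stood at 71.9 and 71.9 at 48 h with no 0 h interval. The Rbfox1 region was intronic and stood at 70.8 and 80.5 at 48 h, again with none at 0 h. The Nt5e intron stood at 63.2 and 64.9 in undamaged liver and had no 48 h interval. The Hnf4a window lay in an intron of the gene, 12202 bp from the nearest coding TSS, and stood at 37.5 and 37.7 at 0 h with no 48 h interval, while the Hnf4a promoter was near the top of every list. The Nr1d1 intron stood at 39.5 and 36.8 at 0 h with no 48 h interval, and the Per1 window belongs to the promoter described above.

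The lists of 72 and 96 h played no part in choosing the regions, while those of 0 h and 48 h did, so a later level away from the 48 h level can come from that choice and is given as a description. The 8381 higher regions had medians of 24.7 and 1.46 in undamaged liver, 57.7 and 59.9 at 48 h, 48.6 and 56.8 at 72 h, then 50.3 and 37.1 at 96 h. The 8411 lower regions had medians of 47.1 and 45.1 in undamaged liver, 0 and 0 at 48 h, 44.9 and 47.4 at 72 h, then 45.8 and 32.6 at 96 h. These levels moved with list length. In lists of equal length the higher regions had medians of 9.25 and 1.46 in undamaged liver, 52.5 and 46.9 at 48 h, 31.5 and 36.6 at 72 h, then 31.6 and 23.4 at 96 h. The lower regions then had medians of 36.2 and 45.1 in undamaged liver and 26.5 and 22.7 at 72 h, and that of 96 h replicate 1 was 25.4 with replicate 2 lower still.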

How the data were processed

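Bulk ATAC-Seq peak lists of 4 libraries (0 h and 48 h, replicates 1 and 2) were compared, and those of 72 and 96 h served for later levels. Per the study's methods the authors used the ENCODE ATAC-Seq pipeline (trimming, Bowtie2 on mm10, removal of PCR duplicates, MACS2), and the deposited lists are 1 per library. For each peak the deposited lists hold the authors' fold enrichment over local background (a ratio), −log10 p and −log10 q, and the summit. They hold no read counts, so depth is unknown, no interval can be given and the study's test on counts could not be run. The lists held 105206 to 139376 distinct intervals, with a lowest −log10 p of 2.0, and 79.5% to 91.8% of intervals shared their −log10 p with another and took the mean rank.

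Lines of 1 interval were collapsed to the highest −log10 p. Percentile was 100 × (1 − (rank − 1)/N). Intervals of chromosomes 1 to 19, X and Y overlapping by at least 1 bp were merged, and a region took its strongest interval in each list. Genes were the 21938 coding genes of GENCODE M21 basic and non-coding genes those of RefSeq on GRCm38.p6, where 0 deposited intervals ended past a chromosome. Of the tested regions 85.4% were assigned to a gene. Named genes were the 12 per direction with several called regions and the largest net number, ties broken by the share of the tested regions of the gene, then the median gap, which left out 6 genes of equal net number among the higher and 1 among the lower, and the 6 regions per direction with the widest gaps. Members of the lists were named for at least 2 called regions in 1 direction and 0 in the other. The members, lists and motifs were chosen with earlier results of these data known, and the tRNA genes and example loci after their values were seen. Scripts ran on Python 3.11.15 with numpy 2.4.6 and pandas 2.3.3 and were tested on simulated data.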

Additional observations from a re-analysis of the deposited data

How the results depend on the processing

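The counts depended on the margin and on the lists, while tRNA gene regions kept more higher than lower calls in every setting run. In the order of margins of 5 and 20 points, 50000 strongest intervals, a log2 rank ratio of 1 and regions in all 4 lists, higher regions numbered 13160, 3761, 4939, 1157 and 3850. Lower regions numbered 4342, 1643 and 2230 with a margin of 20, the rank ratio and all 4 lists. Genes with several higher regions numbered 382 and 45 with margins of 5 and 20, 75 with equal length, 64 with 50000 intervals, 5 with the rank ratio, 68 with all 4 lists, 61 with q under 0.05, 128 with gene bodies ignored and 645 with at least 2 regions and 0 opposite. Genes with several lower regions numbered 340, 99, 402, 146, 8, 14 and 378 in the same order up to q under 0.05, and 639 with at least 2. Higher tRNA gene regions numbered 34 with a margin of 20, 34 with the rank ratio and 26 (of 159 tested) with all 4 lists. Lower ones numbered 1 with a margin of 5, 2 with 50000 intervals, 2 with the rank ratio, 1 by fold enrichment and 2 with 200 bp around each summit.

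Differences in motif shares kept their sign for the 5 motifs recomputed. With a margin of 20, CTCF was 5.24 and AP-1 7.37 points. With 50000 intervals CTCF was 18.7, AP-1 3.61, HNF4 −3.26, FOXA −4.68 and CACGTG −2.68. With 100 bp windows AP-1 was 3.93, HNF4 −1.6, FOXA −2.74 and CACGTG −0.995.

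Leaving out 1 library compares 2 lists with 1, which raises most counts because fewer lists have to meet the criterion. Higher regions then numbered 11271 to 22751 (most without 0 h replicate 1), lower regions 7724 to 22437 (most without 48 h replicate 2). Genes numbered 198 to 1489 for higher and 71 to 1015 for lower, with the same 2 libraries at the upper ends. Higher tRNA gene regions numbered 51 to 80 and lower ones 0 to 8. Net numbers ran from −8 to 4 at Etv6, −6 to 2 at Plekha6, −12 to 1 at Mtus1 and −13 to 1 at Ghr, each above 0 only without 0 h replicate 1, and by fold enrichment Ttc39c turned to 1. The cause was not tested.

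With same-numbered libraries paired in a replicate block, 11155 regions were higher and 10592 lower, with 294 and 290 genes and 66 and 0 tRNA gene regions. Deviations of same-numbered libraries from their group means had a correlation of −0.0249. With 2 libraries per time this value cannot show whether same-numbered libraries shared more than a number. Depth is unknown, and a region missing from a list may have missed only its threshold. The settings for tRNA genes, metabolic lists and named genes were chosen after the data were seen.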

Other observations

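Chromosome 19 differed from the other chromosomes in the balance of calls. Of its 2911 tested regions 12.0% were lower and 5.53% higher at 48 h, while on the other autosomes 6.84% to 8.43% were lower. The mixed groupings called 5.05% and 2.23% of its regions lower. It made up a share of 2.7% and 2.82% of the intervals in undamaged liver and 2.37% and 2.41% at 48 h. Later lists held 2.87% and 2.61% (72 h) and 2.91% and 2.44% (96 h). On the X chromosome 10.1% of 2050 regions were lower and 7.71% higher.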
